A study of Mus musculus with 8 samples.

Results

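The genes described here are the amino acid transporters of 7 solute carrier families, Slc1a, Slc3a, Slc6a, Slc7a, Slc36a, Slc38a and Slc43a. They were taken by gene symbol alone, as every symbol made of a family name and a number, which gave 39 of the 18990 genes in the table. The families held 5 (Slc1a), 2 (Slc3a), 8 (Slc6a), 10 (Slc7a), 2 (Slc36a), 9 (Slc38a) and 3 (Slc43a) members. The symbol says what family a protein belongs to and not what it carries, and the Slc6a family also holds carriers of taurine, creatine, betaine and serotonin.

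Amino acids cross the plasma membrane and the lysosomal membrane through carriers that act alone or in pairs. The light chains of the Slc7a family are bound to a heavy chain of the Slc3a family, and such a dimer swaps an amino acid outside the cell for another inside it, as in LAT1 (*Slc7a5* with *Slc3a2*). Other carriers load the cell with the amino acids that are exchanged, such as the sodium-coupled SNAT carriers of the Slc38a family. Pluripotent cells and fast growing cells are known for high uptake of glutamine, leucine and arginine, and several of these genes are textbook targets of the transcription factor ATF4, which is made when amino acids are scarce.

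The libraries come from wild-type primary mouse embryonic fibroblasts (MEFs) of strain C57/BL6 (BL6 in the labels). All cells carried lentiviruses with the doxycycline-inducible tet-STEMCCA cassette (Oct4, Sox2, Klf4 and c-Myc) and rtTA, and all were grown with doxycycline, the kinase inhibitors Chiron and Alk5i, ascorbic acid and LIF. Before induction they were transfected with pooled siRNAs at 40 nM against *Ncor1*, a corepressor gene, or against *Oct4*, and total RNA was sequenced at day 3 and day 6 of reprogramming. The 4 groups, *siNcor1* and *siOct4* at each day, hold 2 replicates each, and libraries of the non-targeting control are not analysed here. Transduced MEFs are a mixed culture in which few cells become iPSC, so a level is a mean over cells, and fewer cells of a type and less RNA per cell cannot be told apart.

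The targeted genes were checked first. *Ncor1* stood at 7.08 and 7.20 in *siNcor1* and at 7.82 and 7.94 in *siOct4* at day 3, in units of log2-cpm (cpm are reads scaled to a common library total), and the groups differed by 0.74 (SE 0.12, adjusted p = 0.0139). At day 6 the *Ncor1* difference was −0.04 (adjusted p = 0.815). *Pou5f1*, the gene of OCT4, which the cassette also encodes, stood at 7.63 and 7.68 in *siNcor1* and at 7.53 and 7.62 in *siOct4* at day 3. At day 6 it was higher in the libraries labelled *siOct4*, at 9.45 and 8.97 against 7.55 and 7.32, so these libraries are called *siOct4* below by their label only. *Myc*, which the cassette encodes too, moved alike, at 9.14 and 9.21 in *siNcor1* and 9.06 and 9.18 in *siOct4* at day 3 and at 8.53 and 8.45 against 10.31 and 9.85 at day 6, a difference of 1.59 (SE 0.16, adjusted p = 0.000196). The study describes the silencing of *Oct4* as early and transient, with cassette expression restoring it. Depth was between 7735742 and 16445192 reads on genes per library. The non-coding gene *Gm26917* took 15.5% to 16.6% of the reads at day 3 and 20.3% to 29.1% at day 6. The limma test was run on log2-cpm of the 13866 genes averaging 1 CPM or more, with all 4 groups in the fit, and a gene was called at a Benjamini-Hochberg adjusted p under 0.05. The study calls the replicates biological. Whether they came from separate MEF derivations is not given in the sources used here, and p-values measure the spread between these libraries.

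Of the 39 members, 33 passed the filter on low values. The members that did not pass were *Slc3a1*, *Slc6a4*, *Slc6a12*, *Slc6a14*, *Slc7a10* and *Slc38a3*, with at most 11, 4, 6, 26, 10 and 12 reads in any library. The exons of 11 members overlap a gene on the opposite strand and those of 0 overlap another gene on the same strand. The strand setting of the counting is not given in the sources used here, so reads of such overlaps cannot be told apart.

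Per kilobase of exon, the transporter genes with the highest level over the 8 libraries were *Slc3a2*, the CD98 heavy chain, at 54.8 CPM per kb, the taurine carrier *Slc6a6* at 49.6, *Slc7a5* at 45.5 and the neutral amino acid exchanger *Slc1a5* (ASCT2) at 38.7. *Slc38a2* (SNAT2) followed at 27.7 CPM per kb. Of the glutamate carriers of the nervous system, *Slc1a3* at 0.398 and *Slc1a2* at 0.103 CPM per kb were near the bottom of the order, and *Slc1a6* stood higher, at 1.69. The summed level over all members hardly differed between libraries, between 397.8 and 449.1 CPM per kb, while the families took different parts of it. In the *siOct4* day 6 libraries the Slc7a family made up 30.8% and 32.4% of the sum and the Slc1a family 19.2% and 19.0%, against 23.9% to 29.0% and 14.1% to 15.5% in the other 6 libraries. In the same libraries the Slc38a family made up 18.4% and 19.1% and the Slc6a family 14.4% and 13.2%, against 21.8% to 25.4% and 17.1% to 21.7% elsewhere. Within Slc1a at day 6, *Slc1a5* was at 55.24 CPM per kb in *siOct4* and 29.36 in *siNcor1*, and *Slc1a4* at 21.75 and 28.95. The median day 6 difference over the 5 Slc1a members (*siOct4* minus *siNcor1*, log2 scale) was −0.412, so the larger share is not a rise of most members. These shares are descriptions without a test.

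**Figure D1:**
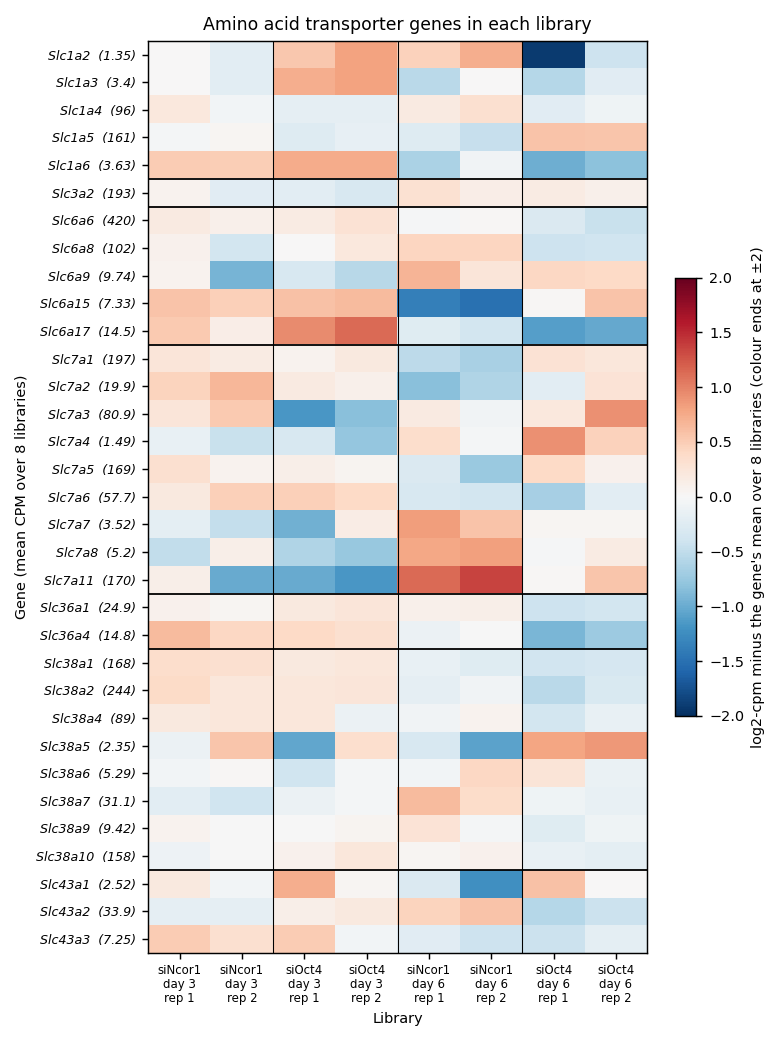
Level of the 33 tested members in each of the 8 libraries as log2-cpm minus the mean of the gene over the libraries, with families separated by lines and the mean CPM beside each symbol. The 4 day 3 columns look alike for most genes, and the day 6 columns of *siNcor1* and *siOct4* have opposite colours for genes such as *Slc1a5*, *Slc6a15*, *Slc7a1*, *Slc6a8* and *Slc43a2*.

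At day 3 the knockdowns differed in 1 of these genes, the arginine carrier *Slc7a3*, and at day 6 they differed in 17. *Slc6a15*, *Slc38a5* and *Slc1a5* led those higher in *siOct4* at day 6, and *Slc1a2*, *Slc43a2* and *Slc7a11* the lower ones. Of the 17 day 6 calls, 12 were lost in at least 1 other fit, among them *Slc38a5*, *Slc1a2* and *Slc7a11*. The day 3 call was lost in some fits too. At day 3, 0 members were higher in *siOct4* and 1 was lower, against 0.375% and 0.692% of all tested genes. At day 6, 6 of 33 members were higher and 11 lower, against 12.1% and 18.6% of all tested genes, with a median difference of −0.24 over the members and −0.03 over all genes. From day 3 to day 6, 7 members rose and 12 fell in *siNcor1*, against 13.8% and 20.9% of all genes, and 8 rose and 13 fell in *siOct4*, against 22.2% and 30.5%. The knockdown difference itself changed between the days in 13 members, toward *siOct4* in 7 and toward *siNcor1* in 6, against 7.77% and 12.9% of all genes. In all, 29 members were called in at least 1 of these 5 comparisons, which share their libraries, against 66.6% of all tested genes. The members called in none were *Slc38a4*, *Slc38a6*, *Slc38a9* and *Slc43a1*.

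Other cell type markers moved with these groups. The summed level of 10 fibroblast markers was 4640 to 5020 CPM in *siNcor1* and 2590 to 2690 CPM in *siOct4* at day 6. Of these, 8 of 10 were lower in *siOct4*. At day 3 the sums were 6820 to 6830 against 9580 to 11300 CPM, with 1 of 10 higher in *siOct4* and 0 lower. For 10 epithelial or early colony markers the day 6 sums were 755 to 787 CPM in *siNcor1* and 339 to 379 CPM in *siOct4*, with 6 of 10 lower. Their day 3 sums were 93.7 to 100 and 38.3 to 49.9 CPM, with 4 of 10 lower in *siOct4* and 0 higher. For 10 naive pluripotency markers the sums at day 6 were 122 to 123 CPM in *siNcor1* and 52.2 to 55.0 CPM in *siOct4*. Trophoblast-like markers summed to 75.7 to 80.3 and 39.8 to 47.2 CPM in these groups, with 3 of 6 tested markers lower. Of the 5 neural markers tested, 2 were higher and 1 was lower in *siOct4* at day 6. *Dcx*, *Sox1*, *Gfap* and *Olig2* were at 3 reads or fewer or not in the table. Only 4 of 10 macrophage markers and 1 of 8 endothelial markers were tested, and 0 of these differed between the knockdowns at day 6. Over all tested genes, 12.1% were higher and 18.6% lower in *siOct4* at day 6. At day 3, 0.375% of all tested genes were higher and 0.692% lower in *siOct4*. The part of these cell types in the transporter differences was not tested.

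**Figure D2:**
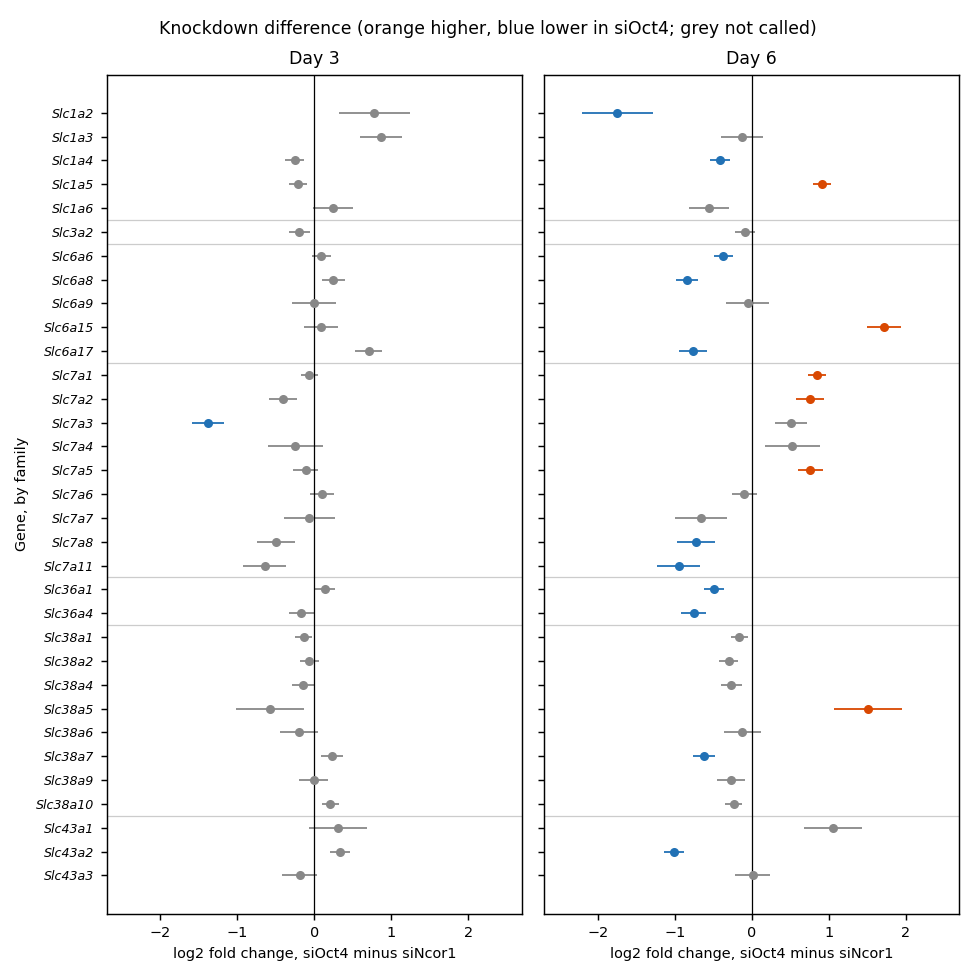
Difference between the knockdowns (*siOct4* minus *siNcor1*, log2 scale, points with bars of 1 SE from limma) at day 3 and at day 6 for the 33 tested members, by family. At day 3 only *Slc7a3* was called, and at day 6 the 6 orange genes were higher and the 11 blue genes lower in *siOct4*.

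The heavy chain *Slc3a2* (chr19:8706882-8723369 on GRCm38, as are all positions here) changed little. Its log2-cpm was 7.66 and 7.36 in *siNcor1* and 7.37 and 7.26 in *siOct4* at day 3, and 7.88 and 7.71 in *siNcor1* and 7.74 and 7.68 in *siOct4* at day 6. The day 6 groups overlapped, and the knockdowns differed by −0.08 (SE 0.13, adjusted p = 0.659) at day 6. It rose in *siOct4* by 0.40 (SE 0.13, adjusted p = 0.0232), a call that was lost without *siOct4* day 3 replicate 1 (0.45, adjusted p = 0.0505), day 3 replicate 2 (0.34, adjusted p = 0.135) or day 6 replicate 1 (0.37, adjusted p = 0.0548). In *siNcor1* its change was 0.29 (SE 0.13, adjusted p = 0.11).

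Its light chains went different ways. *Slc7a5* (chr8:121881150-121907694), the light chain of LAT1 that carries leucine and other large neutral amino acids, was at 7.69 and 7.43 in *siNcor1* and 7.48 and 7.42 in *siOct4* at day 3, and 7.07 and 6.62 in *siNcor1* and 7.76 and 7.45 in *siOct4* at day 6. Both *siNcor1* day 6 libraries were below the other 6. *Slc7a5* fell in *siNcor1*, with a change of −0.71 (SE 0.16, adjusted p = 0.00601), while its change in *siOct4* was 0.16 (SE 0.16, adjusted p = 0.438). At day 6 it was higher in *siOct4* by 0.76 (SE 0.16, adjusted p = 0.00568), and the change of the knockdown difference was 0.87 (SE 0.23, adjusted p = 0.0223). Without *siNcor1* day 6 replicate 2, the lowest library, the day 6 difference was 0.53, adjusted p = 0.0838 and the *siNcor1* change −0.49, adjusted p = 0.0789. The *siNcor1* change was −0.59, adjusted p = 0.0653 without *siNcor1* day 3 replicate 1, and the change of the knockdown difference was kept in 4 of the 8 fits with a library left out and lost with no trend of the variance (adjusted p = 0.0782).

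*Slc7a11* (chr3:49892526-50443614), the xCT light chain that takes up cystine in exchange for glutamate, moved the other way. Its log2-cpm was 7.25 and 6.12 in *siNcor1* and 6.12 and 5.96 in *siOct4* at day 3, and 8.25 and 8.48 in *siNcor1* and 7.15 and 7.68 in *siOct4* at day 6. Every day 6 library was above the 3 lowest day 3 libraries, but *siNcor1* day 3 replicate 1 lay above *siOct4* day 6 replicate 1, and the replicates of *siNcor1* at day 3 were far apart. *Slc7a11* rose by 1.68 (SE 0.28, adjusted p = 0.00109) in *siNcor1* and by 1.38 (SE 0.28, adjusted p = 0.00158) in *siOct4*. At day 6 it was lower in *siOct4*, with a difference of −0.95 (SE 0.28, adjusted p = 0.0256) and no overlap of the libraries, and that difference had changed by −0.30 (SE 0.40, adjusted p = 0.624) since day 3. The day 6 call was lost without *siNcor1* day 6 replicate 1 (−1.06, adjusted p = 0.0574), *siNcor1* day 6 replicate 2 (−0.83, adjusted p = 0.153) or *siOct4* day 6 replicate 1 (−0.68, adjusted p = 0.113).

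RefSeq promoters (GRCm38.p6, the 250 bases before a transcript start) were matched for 28 of the 39 members, in 44 windows. They were searched on both strands for the ATF4 element TGATGNAA, the antioxidant response element TGACNNNGC and the E-box CACGTG, which MYC proteins and TFEB are known to bind. The ATF4 element was in 3 of the 44 windows (6.82%) and in 3.45% of 32851 windows over all genes. The 2 members with it were *Slc7a11* and *Slc7a7*. No window was matched for *Slc1a5*, *Slc6a6*, *Slc6a8*, *Slc6a15*, *Slc7a2*, *Slc7a3*, *Slc7a4*, *Slc7a5*, *Slc38a1*, *Slc38a3* and *Slc43a3*. These genes were not searched for any of the elements. The window of *Slc7a11* is printed because that gene had the largest rise from day 3 to day 6 among the light chains, with the matches in capitals, 66 and 47 bases before the start on opposite strands.

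Slc7a11, chr3:50443614-50443863, minus strand: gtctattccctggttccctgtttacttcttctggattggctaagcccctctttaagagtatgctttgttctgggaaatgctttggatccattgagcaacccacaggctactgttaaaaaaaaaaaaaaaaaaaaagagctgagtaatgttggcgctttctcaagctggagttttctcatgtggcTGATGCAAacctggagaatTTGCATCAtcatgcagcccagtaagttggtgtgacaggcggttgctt

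Of the other light chains, *Slc7a6* (y+LAT2), which swaps arginine for neutral amino acids, stood at 5.99 and 6.28 in *siNcor1* and 6.27 and 6.20 in *siOct4* at day 3, and 5.48 and 5.43 in *siNcor1* and 5.12 and 5.59 in *siOct4* at day 6, and it fell by 0.68 in *siNcor1* (SE 0.16, adjusted p = 0.00669) and by 0.88 in *siOct4* (SE 0.16, adjusted p = 0.000709). The *siNcor1* fall was −0.54, adjusted p = 0.0859 without *siNcor1* day 3 replicate 2. The *Slc7a6* difference between the knockdowns did not pass the test at day 6 (−0.10, adjusted p = 0.68). *Slc7a8* (LAT2) was at 1.82 and 2.42 in *siNcor1* and 1.70 and 1.55 in *siOct4* at day 3, and 3.08 and 3.12 in *siNcor1* and 2.29 and 2.48 in *siOct4* at day 6. It rose in *siNcor1* (0.98 (SE 0.24, adjusted p = 0.00931)) and in *siOct4* (0.76 (SE 0.24, adjusted p = 0.0208)) and was lower in *siOct4* at day 6 (−0.72 (SE 0.24, adjusted p = 0.0436)), a call lost in 5 of the fits with 1 library left out, and its rises were lost in 3 (*siNcor1*) and 2 (*siOct4*) of them. *Slc7a7* (y+LAT1) rose in *siNcor1* by 1.04 (SE 0.34, adjusted p = 0.0315), from 1.58 and 1.30 to 2.60 and 2.35, and this call was lost without any 1 of those 4 libraries.

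Within the light chains the mix therefore differed between the day 6 groups. *Slc7a11* made up 13.3% and 7.12% of the summed light chain level (CPM per kb of exon) in *siNcor1* and 7.04% and 6.52% in *siOct4* at day 3. At day 6 it made up 30.5% and 39.6% in *siNcor1* and 13.1% and 19.7% in *siOct4*. *Slc7a5* made up 66.2% to 67.8% in the 4 day 3 libraries, 50.5% and 40.9% in *siNcor1* at day 6, and 74.5% and 63.2% in *siOct4* at day 6. By exon union, the summed light chains were 1.43 to 1.57 times the level of *Slc3a2* at day 3, 1.07 and 1.09 times in *siNcor1* at day 6, and 1.29 and 1.28 times in *siOct4* at day 6. The exon union of *Slc3a2* is 3529 bp and its longest principal transcript 1819 bp, against 3708 and 3517 bp for *Slc7a5*. The ratios would be lower with principal transcript lengths, so they do not say whether the light chains exceed *Slc3a2*. The exon union of *Slc7a11* is long, and with the length of the longest principal transcript in its place its shares at day 6 were 37.5% and 47.0% in *siNcor1* and 17.3% and 25.3% in *siOct4*.

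**Figure D3:**
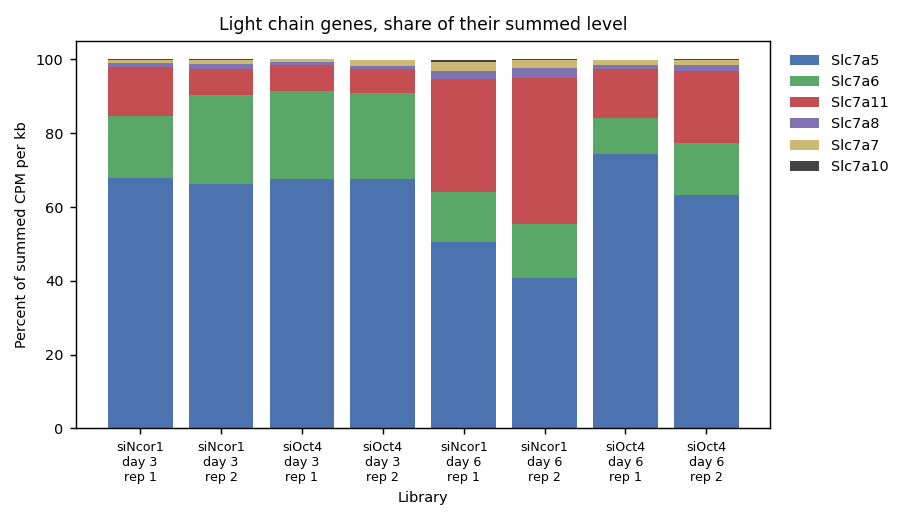
Share of each light chain gene in the summed light chain level (percent of CPM per kb of exon) in each library. *Slc7a11* takes 30.5% and 39.6% in the *siNcor1* day 6 libraries and 6.52% to 19.7% in the other libraries, and *Slc7a5* takes 40.9% and 50.5% in the former and 63.2% to 74.5% in the latter.

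The carriers of arginine and lysine, which need no heavy chain, had levels above those of *siNcor1* in *siOct4* at day 6, though not all passed the test. *Slc7a1* (chr5:148327410-148399904), the widely expressed CAT1, was at 7.83 and 7.75 in *siNcor1* and 7.66 and 7.79 in *siOct4* at day 3, and 7.06 and 6.94 in *siNcor1* and 7.88 and 7.81 in *siOct4* at day 6. Both *siNcor1* day 6 libraries stood below the other 6, which lay close together. *Slc7a1* fell by 0.79 in *siNcor1* (SE 0.12, adjusted p = 0.000476) and its change in *siOct4* was 0.12 (SE 0.12, adjusted p = 0.391). The day 6 difference was 0.85 (SE 0.12, adjusted p = 0.000581) and the change of the difference 0.91 (SE 0.16, adjusted p = 0.00323), and all 3 calls were kept in every fit that tested it. *Slc7a2* (CAT2) was at 4.69 and 4.91 in *siNcor1* and 4.43 and 4.35 in *siOct4* at day 3, and 3.41 and 3.64 in *siNcor1* and 4.04 and 4.53 in *siOct4* at day 6, fell in *siNcor1* by 1.28 (SE 0.18, adjusted p = 0.000433) and was higher in *siOct4* at day 6 by 0.76 (SE 0.18, adjusted p = 0.00991). Without *siNcor1* day 6 replicate 1 this last difference was 0.64, adjusted p = 0.0733, and an unnamed gene model overlaps *Slc7a2* on the opposite strand.

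*Slc7a3* (chrX:101079210-101086020), the CAT3 carrier, was the only member called between the knockdowns at day 3. It stood at 6.45 and 6.73 in *siNcor1* and at 5.05 and 5.37 in *siOct4* at day 3, which did not overlap, and the difference was −1.39 (SE 0.21, adjusted p = 0.00953). At day 6 it was at 6.39 and 6.15 in *siNcor1* and at 6.42 and 7.13 in *siOct4*, so *siOct4* had risen by 1.57 (SE 0.21, adjusted p = 8.38e-05) while the change in *siNcor1* was −0.33 (SE 0.21, adjusted p = 0.254). The day 6 difference was 0.51 (SE 0.21, adjusted p = 0.0861). The day 3 call was lost without *siNcor1* day 3 replicate 1 (−1.53, adjusted p = 0.0654), *siNcor1* day 3 replicate 2 (−1.24, adjusted p = 0.202) or *siOct4* day 3 replicate 1 (−1.23, adjusted p = 0.082), and in a fit with 1 prior variance for all genes (−1.39, adjusted p = 0.0929). *Slc7a4*, a relative of these carriers, rose in *siOct4* from 0.29 and −0.16 to 1.53 and 1.06. The change was 1.23 (SE 0.36, adjusted p = 0.0124), on 6 to 26 reads per library. This call was lost with quantile normalization (0.88, adjusted p = 0.0631). It was also lost without *siOct4* day 3 replicate 2 (1.008) or day 6 replicate 1 (0.998). Exons of *Slc7a4* overlap *P2rx6* on the opposite strand.

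In the Slc1a family the exchanger of glutamine and small neutral amino acids, *Slc1a5* (chr7:16781340-16798274), had the clearest difference. Its log2-cpm was 7.26 and 7.33 in *siNcor1* and 7.03 and 7.13 in *siOct4* at day 3, and 7.03 and 6.84 in *siNcor1* and 7.86 and 7.84 in *siOct4* at day 6. The *siOct4* day 6 libraries were above all others and the *siNcor1* day 6 replicate 2 library was the lowest. *Slc1a5* rose by 0.77 (SE 0.12, adjusted p = 0.000211) in *siOct4* and was higher there at day 6 by 0.91 (SE 0.12, adjusted p = 0.000458), both kept in every fit that tested it. In *siNcor1* it fell by 0.36 (SE 0.12, adjusted p = 0.0331), and this call was lost without any 1 of the 4 *siNcor1* libraries and under 4 other settings. Its close relative *Slc1a4* (ASCT1), a carrier of serine and alanine, was at 6.76 and 6.90 in *siNcor1* and 6.35 and 6.49 in *siOct4* at day 6, a difference of −0.41 (SE 0.13, adjusted p = 0.0287) that was lost without *siNcor1* day 6 replicate 1 (−0.48, adjusted p = 0.0666), replicate 2 (−0.34, adjusted p = 0.211) or *siOct4* day 6 replicate 1 (−0.34, adjusted p = 0.0813).

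The glutamate carriers of the Slc1a family were low throughout. *Slc1a6* (EAAT4) went from 2.27 and 2.26 to 1.14 and 1.70 in *siNcor1* and from 2.51 and 2.51 to 0.78 and 0.94 in *siOct4*, and fell in both, by 0.85 (SE 0.26, adjusted p = 0.0266) and 1.65 (SE 0.26, adjusted p = 0.0003). The *siNcor1* change of *Slc1a6* was −0.57 without *siNcor1* day 6 replicate 1. *Slc1a3* (GLAST) fell in *siOct4*, from 2.46 and 2.54 to 1.17 and 1.51, a change of −1.16 (SE 0.28, adjusted p = 0.00399). *Slc1a2* (GLT-1) was at 0.39 and 0.17 in *siNcor1* and 0.92 and 1.19 in *siOct4* at day 3, and 0.84 and 1.11 in *siNcor1* and −1.52 and −0.02 in *siOct4* at day 6. The lowest of these values rests on 2 reads and the next on 10 reads, against 17 to 26 reads in the other libraries. Its day 6 difference was −1.75 (SE 0.47, adjusted p = 0.0156), and without *siOct4* day 6 replicate 1 it was −0.99, adjusted p = 0.0844 and without *siNcor1* day 6 replicate 2 −1.61, adjusted p = 0.109.

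*Slc43a2* (chr11:75531694-75577575), the LAT4 carrier that lets leucine and phenylalanine pass down their gradient without exchange, had the opposite pattern to *Slc1a5*. It was at 4.87 and 4.86 in *siNcor1* and 5.15 and 5.24 in *siOct4* at day 3, and 5.49 and 5.62 in *siNcor1* and 4.47 and 4.62 in *siOct4* at day 6. The *siNcor1* libraries were below those of *siOct4* at day 3 and above them at day 6, and no groups overlapped. *Slc43a2* rose in *siNcor1* by 0.69 (SE 0.13, adjusted p = 0.00198) and fell in *siOct4* by 0.65 (SE 0.13, adjusted p = 0.0012). The day 6 difference was −1.01 (SE 0.13, adjusted p = 0.000456), the change of the difference −1.34 (SE 0.18, adjusted p = 0.000945), and these 4 calls were kept in every fit that tested it, although an unnamed gene model overlaps it on the opposite strand. Of its relatives, *Slc43a3*, which carries purine bases, fell in *siNcor1* from 3.35 and 3.15 to 2.60 and 2.42 (−0.74 (SE 0.23, adjusted p = 0.0262)), a call lost without any 1 of those libraries, and *Slc43a1* (LAT3) had a day 6 difference of 1.06 (SE 0.38, adjusted p = 0.0528).

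The members of the Slc6a family, which couple transport to sodium and chloride, went both ways. *Slc6a15* (chr10:103367783-103419377), which carries branched chain amino acids and proline, was at 3.27 and 3.18 in *siNcor1* and 3.29 and 3.34 in *siOct4* at day 3, and 1.34 and 1.22 in *siNcor1* and 2.72 and 3.27 in *siOct4* at day 6. The *siNcor1* day 6 libraries were far below the other 6. It fell in *siNcor1* by 1.95 (SE 0.22, adjusted p = 9.85e-05), the largest fall of any member there, and its change in *siOct4* was −0.32 (SE 0.22, adjusted p = 0.245). The day 6 difference was 1.72 (SE 0.22, adjusted p = 0.000484), which was kept in every fit that tested it.

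*Slc6a17* (chr3:107467543-107518018), a carrier of neutral amino acids into synaptic vesicles, had the largest F over the 4 groups of all members. It was at 4.19 and 3.81 in *siNcor1* and 4.61 and 4.80 in *siOct4* at day 3, and 3.43 and 3.31 in *siNcor1* and 2.57 and 2.64 in *siOct4* at day 6. The order was *siOct4* above *siNcor1* at day 3 and the reverse at day 6, with no overlap on either day. The day 3 difference of 0.71 (SE 0.18, adjusted p = 0.0943) did not pass the test, the day 6 difference was −0.76 (SE 0.18, adjusted p = 0.00849), and the change of the difference was −1.47 (SE 0.25, adjusted p = 0.0026). It fell by 2.10 in *siOct4* (SE 0.18, adjusted p = 3.69e-06), the largest fall of any member in either knockdown. Without *siNcor1* day 6 replicate 1 the day 6 difference was −0.70, adjusted p = 0.0576.

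*Slc6a8* (chrX:73673150-73682502), the creatine carrier, was at 6.73 and 6.28 in *siNcor1* and 6.65 and 6.86 in *siOct4* at day 3, and 7.07 and 7.08 in *siNcor1* and 6.22 and 6.25 in *siOct4* at day 6. It rose in *siNcor1* (0.57 (SE 0.15, adjusted p = 0.0118)) and fell in *siOct4* by 0.52 (SE 0.15, adjusted p = 0.0112), and at day 6 the difference of −0.84 (SE 0.15, adjusted p = 0.00211) was kept in every fit that tested it. The *siNcor1* rise was 0.34 without *siNcor1* day 3 replicate 2. The *siOct4* fall was lost with quantile normalization (−0.265, adjusted p = 0.158) and was −0.42 without *siOct4* day 3 replicate 2. The taurine carrier *Slc6a6* was the member with the highest CPM before correction for length, at 8.87 and 8.80 in *siNcor1* and 8.87 and 8.98 in *siOct4* at day 3, and 8.67 and 8.72 in *siNcor1* and 8.40 and 8.25 in *siOct4* at day 6. It fell in *siOct4* by 0.60 (SE 0.12, adjusted p = 0.00149). Its day 6 difference was −0.37 (SE 0.12, adjusted p = 0.0387), a call that was kept in only 1 of the 8 fits with a library left out. The glycine carrier *Slc6a9* (GlyT1) rose in both knockdowns, by 0.89 (SE 0.28, adjusted p = 0.0291) in *siNcor1* and 0.84 (SE 0.28, adjusted p = 0.0252) in *siOct4*, and its day 6 difference was −0.05 (SE 0.28, adjusted p = 0.907). Both rises were lost with no trend of the variance (adjusted p = 0.0714 and 0.0594). The *siNcor1* day 3 replicates were far apart, at 3.28 and 2.29. The *siNcor1* rise was 0.40 without day 3 replicate 2 and 0.67 without day 6 replicate 1, and the *siOct4* rise was 0.73 without day 3 replicate 2. Exons of *Slc6a9* overlap *Ccdc24* on the opposite strand.

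**Figure D4:**
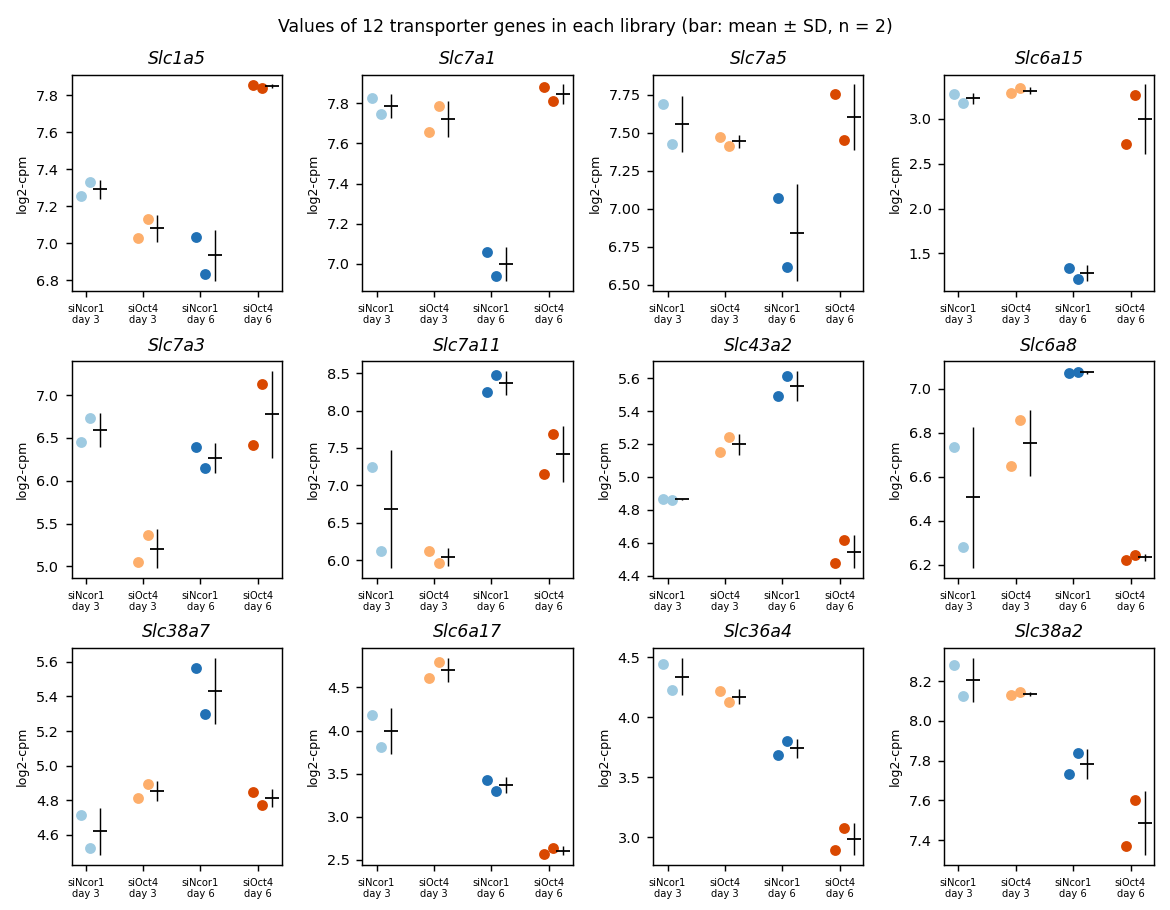
Values of 12 members in each library (log2-cpm, 1 point per library, with bars at the mean and SD of the 2 replicates). *Slc1a5*, *Slc7a1*, *Slc7a5* and *Slc6a15* have their lowest mean in *siNcor1* at day 6, *Slc43a2*, *Slc6a8* and *Slc38a7* their highest mean there, and *Slc6a17*, *Slc36a4* and *Slc38a2* their lowest mean in *siOct4* at day 6.

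The SNAT carriers of the Slc38a family, which load cells with glutamine, fell with time or did not pass the test, with exceptions. *Slc38a2* (chr15:96687392-96699730), the SNAT2 carrier known to rise when amino acids are withdrawn, was at 8.28 and 8.13 in *siNcor1* and 8.13 and 8.14 in *siOct4* at day 3, and 7.73 and 7.84 in *siNcor1* and 7.37 and 7.60 in *siOct4* at day 6. All day 6 libraries were below all day 3 libraries. It fell by 0.42 in *siNcor1* (SE 0.12, adjusted p = 0.0211) and by 0.65 in *siOct4* (SE 0.12, adjusted p = 0.000989), the former lost without any 1 of the 4 *siNcor1* libraries. The day 6 difference was −0.30 (SE 0.12, adjusted p = 0.0895). *Slc38a1* (SNAT1), which lies 44.5 kb from it on the same strand of chromosome 15, was at 7.72 and 7.69 in *siNcor1* and 7.56 and 7.59 in *siOct4* at day 3, and 7.22 and 7.12 in *siNcor1* and 6.98 and 7.04 in *siOct4* at day 6. It fell by 0.54 in *siNcor1* (SE 0.11, adjusted p = 0.00306) and by 0.56 in *siOct4* (SE 0.11, adjusted p = 0.00111), both kept in every fit that tested it, and its day 6 difference was −0.16 (SE 0.11, adjusted p = 0.292). The next gene of the cluster, *Slc38a4*, lies 295.1 kb from *Slc38a2* and was called in no comparison, with −0.21 (SE 0.14, adjusted p = 0.278) in *siNcor1* and −0.32 (SE 0.14, adjusted p = 0.0708) in *siOct4*.

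Other members of the family, *Slc38a7* and *Slc38a5*, differed from these. *Slc38a7* (chr8:95835920-95853539), known as a lysosomal exporter of glutamine, was at 4.72 and 4.52 in *siNcor1* and 4.81 and 4.89 in *siOct4* at day 3, and 5.57 and 5.30 in *siNcor1* and 4.85 and 4.78 in *siOct4* at day 6. The *siNcor1* day 6 libraries were above all others. It rose in *siNcor1* by 0.81 (SE 0.14, adjusted p = 0.00141), its change in *siOct4* was −0.04 (SE 0.14, adjusted p = 0.823), and the day 6 difference was −0.62 (SE 0.14, adjusted p = 0.00766). Without *siNcor1* day 6 replicate 1 that difference was −0.49, adjusted p = 0.0812. *Slc38a5* (chrX:8271133-8280179), the X-linked SNAT5, which carries glutamine, histidine and glycine, was low, with 11 to 54 reads per library. It was at 1.04 and 1.71 in *siNcor1* and 0.12 and 1.48 in *siOct4* at day 3, and 0.84 and 0.09 in *siNcor1* and 1.94 and 2.02 in *siOct4* at day 6. Both *siOct4* day 6 libraries were above the other 6, the replicates of *siOct4* at day 3 were far apart, and the day 6 difference was 1.51 (SE 0.44, adjusted p = 0.0238). It was lost without *siNcor1* day 6 replicate 2 (1.14, adjusted p = 0.184) or *siOct4* day 6 replicate 2 (1.48, adjusted p = 0.0526).

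The E-box was in 5 of the 44 windows (11.4%) and in 6.02% of windows over all genes. The members with it were *Slc1a6*, *Slc36a1*, *Slc38a5*, *Slc38a7* and *Slc43a1*. The windows of *Slc38a5* and *Slc38a7* are printed as examples, with the E-box in capitals, 30 and 34 bases before the start. In *Slc1a6* and *Slc36a1* it lay 32 and 31 bases before the start, and in *Slc43a1* 64 bases.

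Slc38a5, chrX:8271131-8271380, plus strand: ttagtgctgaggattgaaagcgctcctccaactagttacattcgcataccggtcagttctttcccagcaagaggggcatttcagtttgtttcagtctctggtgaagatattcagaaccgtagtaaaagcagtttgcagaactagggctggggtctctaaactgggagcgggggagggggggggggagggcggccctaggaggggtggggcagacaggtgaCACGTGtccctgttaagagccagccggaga

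Slc38a7, chr8:95853492-95853741, minus strand: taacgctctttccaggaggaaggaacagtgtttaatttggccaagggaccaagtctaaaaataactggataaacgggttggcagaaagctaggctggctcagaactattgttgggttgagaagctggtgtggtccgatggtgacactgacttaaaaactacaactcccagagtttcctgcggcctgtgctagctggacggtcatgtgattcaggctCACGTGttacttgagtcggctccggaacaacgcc

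The antioxidant response element was in 6 of the 44 windows (13.6%) and in 10.2% of windows over all genes. The members with it were *Slc38a2*, *Slc43a1*, *Slc6a9*, *Slc7a1* and *Slc7a6*. The *Slc7a1* window, with the element in capitals 11 bases before the start, is printed because *Slc7a1* was the cationic carrier with the highest CPM.

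Slc7a1, chr5:148399905-148400154, minus strand: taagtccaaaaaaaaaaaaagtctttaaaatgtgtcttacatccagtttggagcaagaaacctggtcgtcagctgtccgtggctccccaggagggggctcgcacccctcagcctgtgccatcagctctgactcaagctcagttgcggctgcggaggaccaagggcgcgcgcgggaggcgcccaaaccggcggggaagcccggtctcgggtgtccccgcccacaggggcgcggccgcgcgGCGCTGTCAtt

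The remaining members include carriers of the lysosome and the mTORC1 pathway. *Slc38a9*, the lysosomal arginine sensor that acts on mTORC1, was at 3.33 and 3.23 in *siNcor1* and 3.23 and 3.31 in *siOct4* at day 3, and 3.52 and 3.20 in *siNcor1* and 3.01 and 3.16 in *siOct4* at day 6 and was called in no comparison, with a day 6 difference of −0.27 (SE 0.18, adjusted p = 0.279). *Slc36a1* (PAT1), a proton-coupled carrier of small amino acids out of the lysosome, was at 4.72 and 4.67 in *siNcor1* and 4.82 and 4.86 in *siOct4* at day 3, and 4.72 and 4.74 in *siNcor1* and 4.22 and 4.27 in *siOct4* at day 6. The *siOct4* day 6 libraries were below the other 6. It fell in *siOct4* by 0.60 (SE 0.13, adjusted p = 0.00224) and its day 6 difference was −0.49 (SE 0.13, adjusted p = 0.0152), a call lost without *siNcor1* day 6 replicate 1 (−0.50, adjusted p = 0.0725) or replicate 2 (−0.48, adjusted p = 0.106). *Slc36a4* (PAT4), which binds proline and tryptophan with high affinity, was at 4.45 and 4.23 in *siNcor1* and 4.21 and 4.13 in *siOct4* at day 3, and 3.69 and 3.80 in *siNcor1* and 2.89 and 3.08 in *siOct4* at day 6. It fell in *siNcor1* by 0.60 (SE 0.16, adjusted p = 0.0143) and in *siOct4* by 1.18 (SE 0.16, adjusted p = 0.000102), and its day 6 difference of −0.76 (SE 0.16, adjusted p = 0.00558) was −0.70, adjusted p = 0.0624 without *siNcor1* day 6 replicate 2. *Slc38a10* fell in *siOct4* by 0.33 (SE 0.11, adjusted p = 0.0285), a call lost under 5 other settings.

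Set side by side, the changes over time and the day 6 calls gave many patterns, none with more than 4 members. Some of these patterns follow. *Slc6a15*, *Slc7a1*, *Slc7a2* and *Slc7a5* fell in *siNcor1*, were not called over time in *siOct4*, and were higher in *siOct4* at day 6. *Slc43a2* and *Slc6a8* rose in *siNcor1*, fell in *siOct4* and were lower in *siOct4* at day 6, and *Slc1a5* did the opposite in each. *Slc1a6*, *Slc7a6*, *Slc38a1* and *Slc38a2* fell in both knockdowns and were not called between them at day 6. *Slc7a11* and *Slc7a8* rose in both and were lower in *siOct4* at day 6, and *Slc6a17* and *Slc36a4* fell in both and were lower there. In all, 9 of 33 members were called in the same direction over time in both knockdowns, against 22.6% of all tested genes. Among these patterns, the *siNcor1* calls of *Slc1a5*, *Slc1a6*, *Slc36a4*, *Slc38a2*, *Slc6a17*, *Slc6a8*, *Slc7a5*, *Slc7a6* and *Slc7a8* were each lost in at least 1 fit with a library left out. The *siOct4* calls of *Slc6a8* and *Slc7a8* over time were lost with quantile normalization. Between the knockdowns at day 6, the calls of *Slc36a4*, *Slc6a17*, *Slc7a11*, *Slc7a2*, *Slc7a5* and *Slc7a8* were each lost in at least 1 fit with a library left out. The *siNcor1* fall of *Slc6a17* (−0.63 (SE 0.18, adjusted p = 0.0175)) was −0.44, adjusted p = 0.155 without *siNcor1* day 3 replicate 1.

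**Figure D5:**
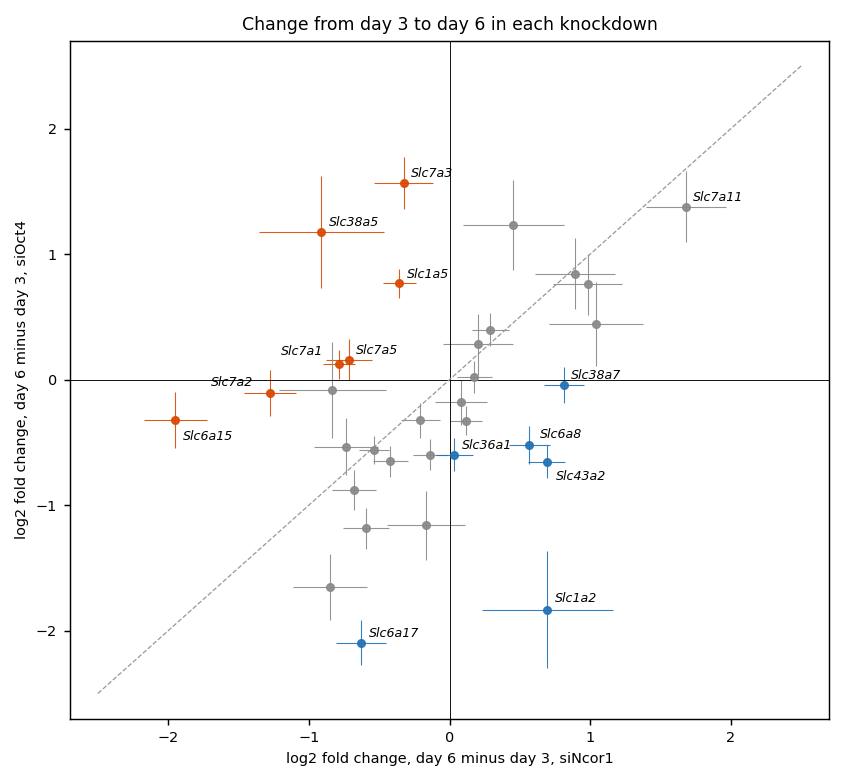
Change from day 3 to day 6 (log2 scale, bars of 1 SE from limma) in *siNcor1* on the x axis and in *siOct4* on the y axis for the 33 tested members, with a dashed line where the changes are equal. The 7 orange and 6 blue genes are those where the change differed by the test, toward *siOct4* and toward *siNcor1*, and *Slc7a11* is named at the upper right, at 1.68 and 1.38.

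Genes of the pathways around the transporters were counted in the same fits. Over all tested genes, 12.1% were higher and 18.6% lower in *siOct4* at day 6. Over time 22.2% of all tested genes rose and 30.5% fell in *siOct4*, against 13.8% and 20.9% in *siNcor1*. Of 29 genes of the amino acid response (the GCN2 and ATF4 pathway), 11 were higher and 2 lower in *siOct4* at day 6, and 18 rose and 2 fell over time in *siOct4* against 7 and 6 in *siNcor1*. The serine synthesis enzymes *Phgdh* (1.20 (SE 0.14, adjusted p = 0.000357)) and *Psph* (0.98 (SE 0.19, adjusted p = 0.00324)) were among the largest day 6 differences, *Chac1*, a glutathione-degrading enzyme, had 0.99 (SE 0.51, adjusted p = 0.159), and the kinase gene *Eif2ak2* had −0.90 (SE 0.18, adjusted p = 0.00369). *Cth*, which makes cysteine, was the only gene of these lists called at day 3, at −1.19 (SE 0.16, adjusted p = 0.00673), and at day 6 its difference was 0.87 (SE 0.16, adjusted p = 0.00276). *Atf4* itself, named after its value was seen, had a day 6 difference of 0.43 (SE 0.12, adjusted p = 0.0215).

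Of 19 tested genes of glutathione and cystine use, 0 were higher and 9 lower in *siOct4* at day 6, and 11 rose and 2 fell over time in *siNcor1* against 9 and 4 in *siOct4*. Over all tested genes, 12.1% were higher and 18.6% lower at day 6. Over time 13.8% of all tested genes rose and 20.9% fell in *siNcor1*, against 22.2% and 30.5% in *siOct4*. The lowest differences were those of the iron exporter *Slc40a1* (−1.09 (SE 0.23, adjusted p = 0.00465)), the oxoproline-cleaving enzyme *Oplah* (−0.99 (SE 0.18, adjusted p = 0.00224)) and the sulfiredoxin gene *Srxn1* (−0.94 (SE 0.19, adjusted p = 0.00386)). *Nfe2l2*, the gene of the NRF2 factor that binds antioxidant response elements, named after its value was seen, had −0.77 (SE 0.15, adjusted p = 0.00296). *Slc7a11*, which brings in cystine for glutathione, was lower in *siOct4* at day 6 too.

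At day 6, 12.1% of all tested genes were higher and 18.6% lower in *siOct4*. Of 33 tested genes of mTORC1 amino acid sensing, 1 was higher and 5 lower in *siOct4* at day 6. The lower ones were led by *Sesn3* (−1.22 (SE 0.12, adjusted p = 0.00021)) and *Tsc1* (−0.50 (SE 0.12, adjusted p = 0.01)), which are known to restrain the pathway, and by *Fnip1* (−0.72 (SE 0.21, adjusted p = 0.0235)), a partner of folliculin. Of 18 tested genes of glutamine, branched chain and arginine use, 5 were higher and 2 lower, among them the glutaminase gene *Gls2* (1.39 (SE 0.25, adjusted p = 0.00219)) and the arginine-using enzyme *Gatm* (0.89 (SE 0.19, adjusted p = 0.00499)) on the higher side and *Ass1*, which makes arginine with *Asl*, on the lower (−0.70 (SE 0.13, adjusted p = 0.0024)). Of 18 tested amino acid carriers outside the 7 families, 4 were higher and 3 lower, led by the aromatic amino acid carrier *Slc16a10* (1.58 (SE 0.20, adjusted p = 0.00044)) and the mitochondrial glycine carrier *Slc25a38* (0.95 (SE 0.14, adjusted p = 0.000984)). Of 11 tested genes that move carriers to or from the membrane, 0 were higher and 3 lower, which were *Sgk1*, *Arrdc3* and *Nedd4*. The median day 6 difference was 0.27 over the amino acid response list, −0.43 over the glutathione list, −0.08 over the mTORC1 list, 0.20 over the glutamine list, 0.00 over the other carriers and −0.26 over the trafficking list, against −0.03 over all tested genes.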

How the data were processed

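Total RNA of 8 libraries was ribo-depleted, and both ends of the fragments were read over 43 bp. The submitters' processing notes name STAR 2.5.2b, edgeR 3.20.9 and the mm10 (GRCm38) build, and the authors deposited log2-cpm values computed with edgeR, with a constant added before the log. The tool and annotation that counted reads on genes are not given in the sources used here. Removing the constant (0.136 CPM, so the lowest deposited log2 value of −2.87 stands for 0 reads) left values that were whole multiples of 1 read, within 0.1 read, in every library. A gene with 3 reads has 0.174 to 0.380 CPM. Replicates were further apart than read counting allows (chi-square divided by its degrees of freedom, 8.44 to 18.7), so each library was counted as 1 replicate.

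The deposited log2 values of genes averaging 1 CPM or more were tested two-sided with limma 3.58.1 (R 4.3.3), using lmFit and eBayes with a trend, and Benjamini-Hochberg adjustment at 0.05 over all of them. Fold changes are on the log2(CPM + 0.136) scale, which understates the changes of low genes. The planned design named a count test if the table held counts, and it holds log2 values. Of 18990 identifiers, 18969 were matched to GENCODE M21 for positions and exon lengths, and 0 columns belonged to no sample. Promoters came from RefSeq (GRCm38.p6).

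The members, the pathway lists and the marker lists were chosen with earlier results of these data known. Named were members called in at least 1 comparison, 10 members named whatever their result, and from other lists genes called at day 3 or among the 3 largest day 6 differences each way. Exceptions are marked as named after their values were seen. Another gene similar to *Slc36a4* is not reported here. The alternatives were eBayes with no trend, quantile normalization, median centring, testing every gene or only those averaging 10 CPM or more, other pseudocounts (0.1 and 1), a block for the replicate number, only the groups compared, voom on the recovered reads, each library left out and, chosen after the data were seen, totals without normalization factors and totals without *Gm26917*. Figures were drawn with matplotlib 3.10.9.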

Additional observations from a re-analysis of the deposited data

Results flagged for a closer look

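The knockdown difference changed between day 3 and day 6, by limma's test of the interaction, in 13 of the 33 tested members. It moved toward *siOct4* in *Slc38a5* (2.09 on the log2 scale), *Slc7a3* (1.89), *Slc6a15* (1.63), *Slc7a2* (1.17), *Slc1a5* (1.13), *Slc7a1* (0.91) and *Slc7a5* (0.87). It moved toward *siNcor1* in *Slc1a2* (−2.53), *Slc6a17* (−1.47), *Slc43a2* (−1.34), *Slc6a8* (−1.09), *Slc38a7* (−0.85) and *Slc36a1* (−0.63). The adjusted p of these 13 lay between 0.000945 for *Slc43a2* and 0.0361 for *Slc38a5*. The calls of 7 of them, *Slc1a5*, *Slc43a2*, *Slc6a15*, *Slc6a17*, *Slc6a8*, *Slc7a1* and *Slc7a3*, were kept in every fit that tested them.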

How the results depend on the processing

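The 5 comparisons gave 71 calls of members, and 33 of them were kept in every fit that tested them, among them 5 of the 17 at day 6 (*Slc1a5*, *Slc43a2*, *Slc6a15*, *Slc6a8* and *Slc7a1*). Of the 71, 20 were of genes averaging under 10 CPM and were not tested under that filter. No call changed its sign. Leaving out each library in turn left 0 to 2 members called at day 3 (1 with all libraries), 8 to 17 at day 6 (17), 9 to 19 over time in *siNcor1* (19), 17 to 20 over time in *siOct4* (21) and 7 to 14 for the change of the difference (13). The counts fell by over 1.5 times at day 6 without *siNcor1* day 6 replicate 1 (10) or replicate 2 (8), over time in *siNcor1* without day 3 replicate 1 (10) or 2 (11) or day 6 replicate 1 (9) or 2 (10), and for the change of the difference without *siNcor1* day 3 replicate 2 (7). At day 3 the count was 0 without *siNcor1* replicate 1 or 2 or *siOct4* replicate 1, and 2 without either *siOct4* day 6 library. A group with 1 library left is assumed to vary like the other groups. Without the trend of the variance 0 members were called at day 3, with 1488 genes at an unadjusted p under 0.05 there, and 15 of the 71 calls were lost, against 9 with quantile normalization, 5 with only the groups compared, 4 without the filter, 3 with median centring, 3 without *Gm26917* in the totals, 1 without normalization factors and 0 with voom or another pseudocount. The share of higher genes among all genes called at day 6 was 39.5%, 27.5% without normalization factors and 47.3% with quantile normalization, and over time in *siOct4* 42.1% and 52.5% without *Gm26917*, where the median of all genes moved by 0.13. The deviations of same-numbered libraries correlated between −0.04 and 0.28, so the numbers were not taken as pairs. With the replicate block, 1, 19, 20, 21 and 13 members were called in the 5 comparisons and 71 of 71 calls were kept.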

Other observations

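The genes whose values were most like those of the 3 members with the largest F over the 4 groups were sought among all tested genes, as Pearson's r over the 8 libraries, which fall into 4 groups that these genes share. *Slc6a17* was most like *Itga5* (0.998), *Pappa* (0.995) and *Galnt18* (0.995), *Slc6a15* was most like *Slc35f1* (0.988), *Gm10110* (0.984) and *Slc35g1* (0.980), and *Slc36a4* was most like *Jak2* (0.998) and *Ccnd2* (0.995). Among the members that did not pass the filter was *Slc6a14*, a carrier of neutral and cationic amino acids. It had 16 and 26 reads in *siNcor1* and 2 and 2 reads in *siOct4* at day 6. The day 3 libraries had 0 to 1 read of it. Its mean over the 8 libraries was 0.493 CPM, so only the fit without the filter tested it. These counts are low and are given as a description.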
